A study of Rattus norvegicus with 26 samples.

Results

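The 7 rat genes described here are long genes with many exons whose read levels were higher in liver colonies grown from transplanted fetal cells than in the host liver around them. They were chosen from 32552 counted features, of which 1933 have an exon length over 4000 nt and 22 or more exon intervals. Within that class they have the largest fitted rise of colony over host that had the same sign in all 5 animals, among features averaging at least 10 CPM (counts scaled to library size) in colonies. The choice used the colony and host libraries, so the values in those libraries are given as a description with no test. Libraries of cells before transplantation played no part in it.

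RNA was sequenced in 26 libraries of rat liver that fall into 6 groups. After transplantation, tissue was laser-captured from colonies derived from fetal cells (labelled fetal) and from the adult host liver that surrounded them (labelled adult), as 1 library each from animals 242, 243, 246, 248 and 249. Before transplantation, 12 libraries came from immunopurified fetal hepatocytes in 3 sorts labelled LAP+, LAP+/OC2+ and LAP+/OC2- (4 libraries each), and 4 libraries came from adult hepatocytes. The sources used here do not give strain, age in days or weeks, the treatment of host animals, which sort was transplanted, or how areas were chosen for capture. Captured tissue was prepared with the SMARTer Stranded Total RNA-seq Pico kit, and sorted or adult cells with the NEBNext Ultra kit. Kit and material change together between the stages, so the stages cannot be told apart from their kits, and no level was tested across them.

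Hepatocytes taken from a fetal liver can settle in the liver of an adult host and grow there into colonies, which are then cut out together with whatever other cells lie in the same area. Laser capture cuts areas out of a tissue section and yields little RNA from each area. At any given level per length, a long gene collects more reads than a short one, so a threshold on counts admits long genes at lower levels. Levels are given here as RPKM, counts per kilobase of exon length scaled to library size, with library sizes adjusted by the TMM method within each stage.

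Library totals ranged from 7871347 to 16874438 counts. The LAP+/OC2+ libraries stood apart, with 38.9 to 78.6% of their counts in mitochondrial features, against 4.11 to 10.3% in the other libraries before transplantation, and they held 1917734 to 5045098 nuclear counts. Among captured libraries, the host library of animal 248 had a count in 19581 features, against 25127 to 28361 in the other 9. The files do not pair identifiers with gene names, and the reference table of 47357 rat genes matched 0 of them, so no gene is named, no known role is given and the tissue labels were not checked against marker genes.

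The 7 genes lie on 5 chromosomes (coordinates follow the deposited files, whose build the sources used here do not name). ENSRNOG00000042899 lies on chromosome 1 from 85058548 to 85096346 on the plus strand, with 7614 nt in 22 exons. ENSRNOG00000004560 lies on chromosome 3 from 1740024 to 1924827 on the minus strand. It has the longest exon length of the 7, at 9659 nt, and its 83 listed exon intervals merge into 47 separate exons. ENSRNOG00000010326, also on chromosome 3 from 176494768 to 176526018, is the shortest, with 4332 nt in 37 exons. ENSRNOG00000058560 lies on chromosome 7 from 139455242 to 139483997, with 4538 nt in 53 exons of 85.6 nt on average. Chromosome 8 holds 2 of the genes, ENSRNOG00000030016 from 39892792 to 39907478 (5682 nt, 26 exons) and ENSRNOG00000032473 from 128298594 to 128416650 (6506 nt, 28 exons). ENSRNOG00000018241 lies on chromosome 16 from 73681422 to 73827488 on the minus strand, with 5124 nt in 40 exons that make up 3.51% of its span.

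The median exon length was 5682 nt for the 7 genes, against 5568 nt for the whole class, and the median number of separate exons was 37 against 27. No exon of the 7 overlaps an exon of another annotated feature on either strand. A threshold of 10 CPM equals 1.04 RPKM at the length of ENSRNOG00000004560 and 2.31 RPKM at that of ENSRNOG00000010326, so these genes pass it at a low level per length.

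Before transplantation 4 of the 7 genes had next to no reads. ENSRNOG00000032473 had 1 count in all 16 libraries together, in LAP+/OC2+ library 4. ENSRNOG00000042899 had 9 counts, of which 4 were in LAP+/OC2+ library 1, 4 in LAP+/OC2+ library 3 and 1 in LAP+ library 1, and none in LAP+/OC2- or adult cells. ENSRNOG00000030016 had 10 counts and at most 2 in a library. For these 3 genes the pooled level over the 16 libraries was 0.000631 RPKM (95% exact Poisson interval 1.6e-05 to 0.00351), 0.00485 RPKM (0.00222 to 0.00921) and 0.00722 RPKM (0.00346 to 0.0133). Such intervals, and limits taken from a count of 0, cover counting error only.

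ENSRNOG00000058560 had 28 counts in the 16 libraries. LAP+/OC2- libraries 1, 3, 4 and 5 held 3, 2, 13 and 1 of them, LAP+ library 3 held 7, LAP+ library 2 and adult library 2 held 1 each, and the LAP+/OC2+ libraries held none, which allows up to 0.0288 RPKM over the group (3 counts). The pooled level was 0.0516 RPKM in LAP+/OC2- cells (0.0311 to 0.0806) and 0.00376 RPKM in adult cells (9.52e-05 to 0.0209). None of these 4 genes passed the low-count filter before transplantation, and they were not tested there.

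**Figure D1:**
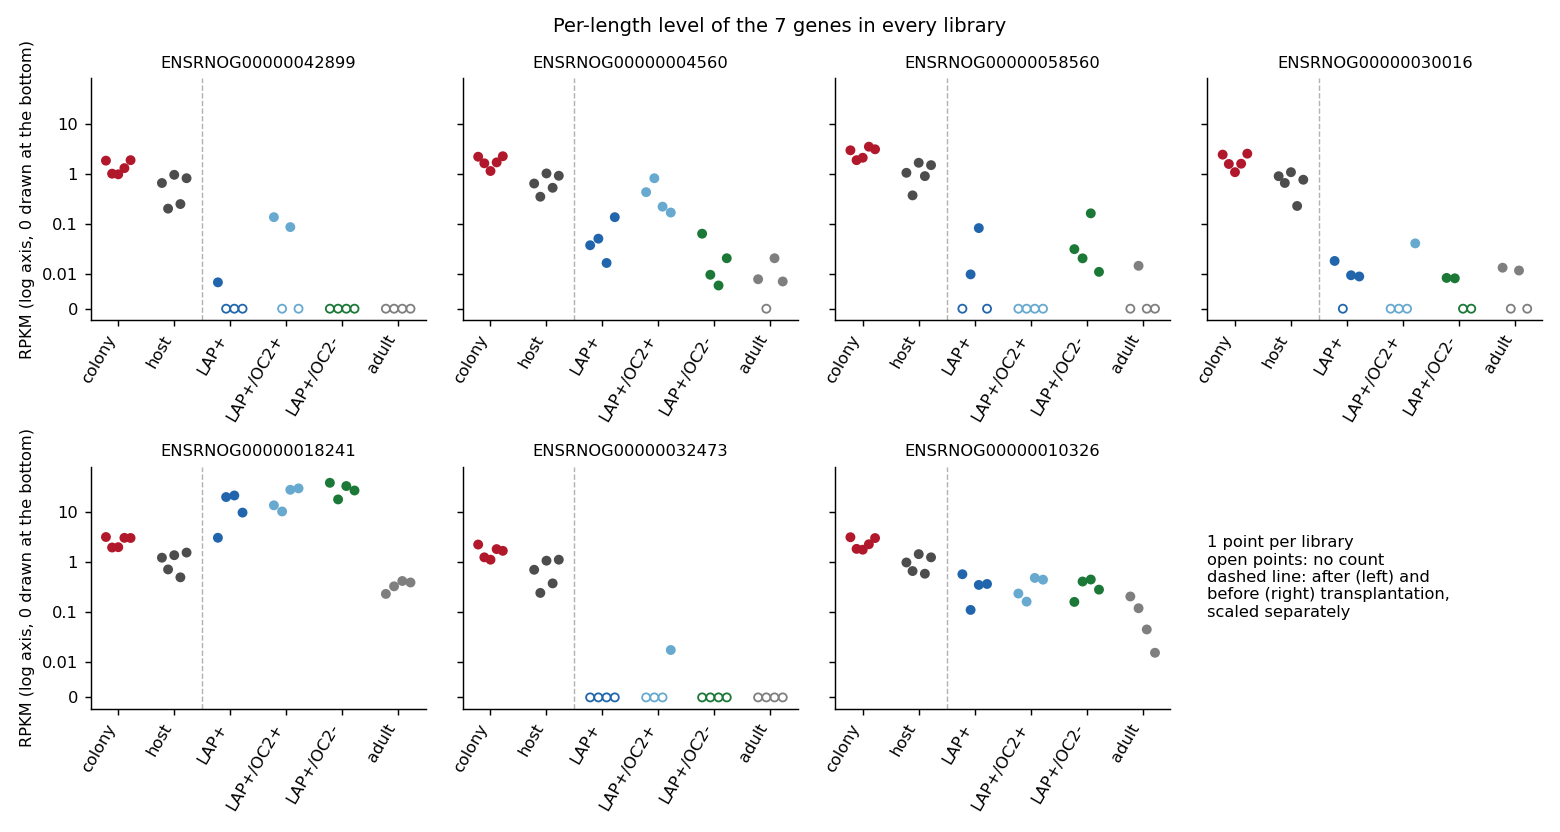
Level of each of the 7 genes in every library, in RPKM on a log axis with libraries without a count drawn as open points at the bottom; 1 panel per gene, 1 point per library, captured tissue left of the dashed line and cells before transplantation right of it. All 7 genes sit between 0.2 and 3.46 RPKM in captured tissue, while before transplantation ENSRNOG00000018241 alone exceeds 1 RPKM.

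ENSRNOG00000018241 was the exception, a gene with a clear level in fetal cells. It stood at 3.1, 20.2, 21.7 and 9.87 RPKM in LAP+ libraries 1 to 4. It stood at 13.8, 10.4, 28.2 and 30.1 RPKM in the 4 LAP+/OC2+ libraries, and at 38.9, 18.1, 33.5 and 27.3 RPKM in the 4 LAP+/OC2- libraries. Adult libraries 1 to 4 had 0.234, 0.332, 0.424 and 0.396 RPKM. LAP+ library 1 was the lowest of the 12 fetal libraries. By level per length ENSRNOG00000018241 ranked at percentile 76.8 to 96.1 of all features in fetal libraries and at 60 to 63.2 in adult ones. These ranks include features without a count. Only 16078 to 17974 of the 32552 features had a count in a library before transplantation.

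The fitted log2 difference of ENSRNOG00000018241 was 5.30 for LAP+ against adult cells (SE 0.59, edgeR adjusted p = 1.38e-06). It was 5.89 for LAP+/OC2+ (SE 0.60, edgeR adjusted p = 1.78e-07) and 6.4 for LAP+/OC2- cells (SE 0.61, edgeR adjusted p = 2.64e-07). These differences share the adult libraries. Of the 13818 features tested, 60.3% were called for LAP+ against adult cells (31.7% higher in LAP+), 77.5% for LAP+/OC2+ (38.9% higher) and 59.3% for LAP+/OC2- (30.9% higher), with median log2 differences of 0.06, -0.02 and 0.06. The mean level per sort was 29.5 ± 8.92 RPKM for LAP+/OC2-, 20.6 ± 9.97 RPKM for LAP+/OC2+ and 13.7 ± 8.83 RPKM for LAP+ (SD, 4 libraries each). The ranges of the 3 sorts overlapped, and LAP+/OC2+ was not compared with LAP+ by a test. The log2 difference was -0.51 for LAP+/OC2+ against LAP+/OC2- cells (95% interval -1.52 to 0.50, edgeR adjusted p = 0.343). It was 1.10 for LAP+/OC2- against LAP+ cells (0.08 to 2.12, edgeR adjusted p = 0.626). In that last comparison 0 of the 3 genes tested were called by edgeR, 1 had an unadjusted p under 0.05 and DESeq2 called 0, where edgeR called 0.391% of all features tested (0.246% higher in LAP+/OC2-).

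ENSRNOG00000010326 had counts in every library before transplantation, at a low level. It had 0.579, 0.112, 0.354 and 0.37 RPKM in the LAP+ libraries, 0.238, 0.164, 0.489 and 0.451 RPKM in the LAP+/OC2+ libraries and 0.162, 0.414, 0.454 and 0.285 RPKM in the LAP+/OC2- libraries, against 0.208, 0.121, 0.0456 and 0.0156 RPKM in adult libraries. Adult libraries 1 to 4 held 12, 8, 3 and 1 counts, and LAP+/OC2+ library 2 held 3, so these levels rest on few reads. The highest adult library overlapped the lowest fetal ones in each sort. The log2 difference from adult cells was 1.86 in LAP+ (SE 0.59, edgeR adjusted p = 0.0124), 1.87 in LAP+/OC2+ (SE 0.65, edgeR adjusted p = 0.0156) and 1.76 in LAP+/OC2- cells (SE 0.60, edgeR adjusted p = 0.0177). The LAP+/OC2+ call was lost without library 3 of that sort (edgeR adjusted p = 0.0551) or library 4 (0.0543), and the LAP+/OC2- call without adult library 3 (0.0588) or adult library 4 (0.0556). The LAP+/OC2+ and LAP+/OC2- sorts differed by a log2 of 0.11 (95% interval -1.13 to 1.35, edgeR adjusted p = 0.874), an interval that leaves room for a difference of 2-fold either way.

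ENSRNOG00000004560 was the only one of the 3 tested genes called between the OC2 sorts. It had 0.427, 0.81, 0.219 and 0.167 RPKM in LAP+/OC2+ libraries 1 to 4, against 0.0631, 0.00953, 0.00582 and 0.0204 RPKM in LAP+/OC2- libraries 1, 3, 4 and 5. The log2 difference of LAP+/OC2+ against LAP+/OC2- cells was 3.90 (SE 0.73, edgeR adjusted p = 1.66e-04). That comparison called 67.5% of all features tested, and 30.8% higher in LAP+/OC2+ cells. The counts behind the difference were 13 to 33 per LAP+/OC2+ library and 1 to 13 per LAP+/OC2- library. Adult libraries held 1, 0, 3 and 1 counts, and LAP+ libraries 7, 11, 3 and 26.

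Against adult cells the log2 difference of ENSRNOG00000004560 was 5.33 in LAP+/OC2+ (SE 0.88, edgeR adjusted p = 3.07e-05) and 2.65 in LAP+ cells (SE 0.95, edgeR adjusted p = 0.0231). The LAP+ call was lost without LAP+ library 4 (edgeR adjusted p = 0.104) and without adult library 1, 2 or 4 (0.0507, 0.0629 and 0.0539). LAP+/OC2- cells differed from adult ones by 1.43 (95% interval -0.85 to 3.71, edgeR adjusted p = 0.253). Features with at most 3 counts over all 16 libraries also had their highest summed levels in LAP+/OC2+ cells, at 0.0152, 0.0105, 0.00982 and 0.00422 RPKM in libraries 1 to 4, against 0.00057 to 0.00144 RPKM in the other 12 libraries. The part of this in the LAP+/OC2+ level of ENSRNOG00000004560 was not tested.

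The mean of the 7 genes over the 16 libraries mostly followed 1 of them. Set against the mean log2(CPM + 1) of all 7, Pearson's r was 0.95 for ENSRNOG00000018241, 0.64 for ENSRNOG00000010326 and between 0.05 and 0.56 for the other 5. Each gene is part of that mean, so these r values are partly fixed in advance. ENSRNOG00000018241 averaged 82.2 CPM over the 16 libraries, and the others at most 1.21 CPM. Among 7392 other features with at least 10 CPM, ENSRNOG00000050258 on chromosome 9 and ENSRNOG00000000167 on chromosome X were most like that mean, with r of 0.99 each over 16 libraries that share group and kit. ENSRNOG00000050258 averaged 43.3 to 71.0 RPKM in the fetal sorts, against 11.2 RPKM in adult cells. ENSRNOG00000000167 averaged 84.5 to 442 RPKM in the fetal sorts, against 2.63 RPKM in adult cells. In captured tissue their fitted colony-host log2 differences were -0.35 and 0.57, given with no test.

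In captured tissue the 7 genes lay in a narrow range. The 10 CPM minimum and the choice of the largest rises partly fixed that range, so nothing is read from it. The levels per length of the 7 genes lay between 0.97 and 3.46 RPKM in colonies and between 0.2 and 1.65 RPKM in host tissue. The highest of the 7 was 1.76 to 2.68 times the lowest in a colony library and 1.74 to 3.95 times in a host library. By rank they stood at percentile 43.8 to 67.9 of all features in colonies and 28.1 to 59.4 in hosts. More features had a count in captured libraries (19581 to 28361) than before transplantation, so ranks are not compared between the stages. The counts were 80 to 389 per gene in a colony library and 13 to 109 in a host library.

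ENSRNOG00000042899 stood at 1.82, 0.999, 0.97, 1.29 and 1.86 RPKM in the colonies of animals 242, 243, 246, 248 and 249, against 0.65, 0.2, 0.948, 0.247 and 0.811 RPKM in their hosts. Colony and host were close in animal 246 and far apart in animals 243 and 248. ENSRNOG00000018241, the gene with reads in fetal cells, stood at 3.21, 1.98, 2.01, 3.09 and 3.07 RPKM in colonies, against 1.24, 0.722, 1.39, 0.502 and 1.57 RPKM in hosts. ENSRNOG00000032473, with 1 count before transplantation, stood at 2.27, 1.26, 1.13, 1.84 and 1.7 RPKM in colonies, against 0.711, 0.245, 1.08, 0.38 and 1.13 RPKM in hosts. Within each captured library the level of ENSRNOG00000018241 was less than 3 times that of ENSRNOG00000032473.

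The other 4 genes followed the same course. ENSRNOG00000058560 had the highest colony value of the 7, 3.46 RPKM in animal 248, and averaged 2.68 ± 0.679 RPKM in colonies and 1.09 ± 0.507 RPKM in hosts (SD, n = 5 each). ENSRNOG00000010326 averaged 2.44 ± 0.652 and 0.995 ± 0.372 RPKM, ENSRNOG00000030016 1.82 ± 0.612 and 0.718 ± 0.316 RPKM, and ENSRNOG00000004560 1.77 ± 0.453 and 0.683 ± 0.272 RPKM in colonies and hosts (SD, n = 5 each). In bulk tissue, fewer cells of a type and less RNA per cell cannot be told apart. Every colony library lay above every host library for each of the 7, in places by less than the digits printed, which held for 2.39% of the 22303 features tested. The choice of genes used this contrast, and nothing is read from it.

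The fitted rise was between 1.32 and 1.43 on the log2 scale, with a median of 1.39, against a median of 0.11 over all features tested and -0.03 over the 1915 tested features of the class. A rise in every animal was seen in 9.10% of all features tested and in 8.46% of the class. At the lower edge of the list stood ENSRNOG00000010326 at 1.3198, and the next feature outside it was ENSRNOG00000046276 on chromosome 10 at 1.3194, with 8 counts before transplantation. Without the 10 CPM minimum, 5 features of the class ranked above all 7, led by ENSRNOG00000032085 on chromosome 8 at 1.70 and a colony mean of 8.6 CPM.

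The rise differed between animals. It was lowest in animal 246 for each of the 7 genes, and highest in animal 243 for ENSRNOG00000004560, ENSRNOG00000058560 and ENSRNOG00000032473 and in animal 248 for the other 4. Their median log2 difference was 1.49 in animal 242, 2.22 in animal 243, 0.17 in animal 246, 2.27 in animal 248 and 1.20 in animal 249. In animal 246 the 7 values ran from 0.01 to 0.53. On library totals without TMM scaling, ENSRNOG00000042899 and ENSRNOG00000030016 had a negative difference there. ENSRNOG00000032473 stood at 0.0 there to the digits printed, and with it counted 5 of the 7 genes kept a rise in every animal. Leaving out animal 246 moved the median fitted rise to 1.68, and leaving out animal 248 moved it to 1.16. The host library of animal 248 had a count in the fewest features of the captured libraries (19581). The part of this in the rise of that animal was not tested.

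Features with next to no counts before transplantation had counts in captured tissue. The 2065 nuclear features of at least 1000 nt with at most 3 counts over the 16 libraries, the 7 genes left out, are called silent features here. Their summed level was 0.841, 0.501, 0.472, 0.743 and 0.848 RPKM in the colonies of animals 242, 243, 246, 248 and 249, against 0.344, 0.259, 0.553, 0.457 and 0.373 RPKM in hosts. It was higher in the colony of 4 animals and lower in that of animal 246. The mean was 0.681 ± 0.183 RPKM in colonies and 0.397 ± 0.112 RPKM in hosts (SD over the 5 animals). The difference had a 2-sided exact sign-flip permutation p of 0.125, or 0.625 adjusted over 5 indices of the captured libraries, where the smallest possible p was 0.0625. Whether the counts of silent features are background reads or expression in captured cells was not tested. The set was defined after the data were seen, on libraries other than those compared.

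**Figure D2:**
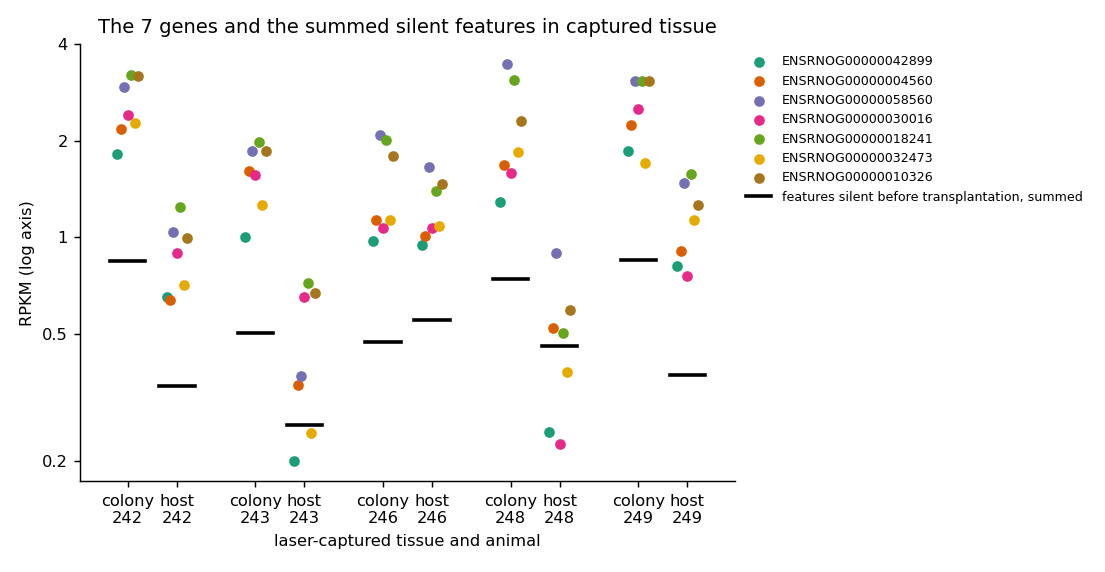
Level of the 7 genes (coloured points) and of the silent features summed (black bars) in each captured library, in RPKM on a log axis, with the colony left of the host of the same animal. The genes lie above the bar in all 5 colonies, and in the hosts of animals 243 and 248 some lie below it.

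The level per length of silent features was somewhat higher with more exons. In colonies and hosts it averaged 0.577 and 0.337 RPKM for 321 silent features of 1 exon, 0.62 and 0.366 RPKM for 911 of 2 to 5 exons, and 0.745 and 0.432 RPKM for 775 of 6 to 21 exons. For the 26 silent features that share the length and exon limits of the 7 genes it averaged 0.765 ± 0.181 and 0.452 ± 0.126 RPKM (SD, n = 5 each). By length, the averages in colonies and hosts were 0.78 and 0.451 RPKM for the 1329 shortest silent features and 0.55 and 0.333 RPKM for the 155 over 4000 nt. A colony mean of 10 CPM was reached by 5 of those over 4000 nt (3.23%) and by 2 of the shortest (0.15%).

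The 7 genes were chosen for their colony-host difference and the silent features were not, so the values of both are set side by side as a description and nothing is read from the genes having the larger one. In animal 249 ENSRNOG00000058560, ENSRNOG00000018241 and ENSRNOG00000032473 lay below the silent features. The log2 colony-host difference of the summed silent features was 1.29, 0.95, -0.23, 0.70 and 1.19 in animals 242, 243, 246, 248 and 249. That of the 7 genes exceeded it by a median of 0.20, 1.26, 0.40, 1.57 and 0.01, a mean of 0.69 ± 0.69 (SD, n = 5). By these medians the 2 measures were close in animals 242 and 249, and in animals 243 and 248 they were more than 1 apart. Single genes ran from 1.37 to 1.78 in animal 242 and from 0.59 to 1.73 in animal 249. Averaged over animals and scaled to silent features in place of TMM, the rises of the 7 genes had a median of 0.65 (0.56 to 0.7). With TMM scaling these averages ran from 1.34 to 1.49. Animal 246 had the smallest difference by both measures. The part of background reads in either difference was not tested.

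**Figure D3:**
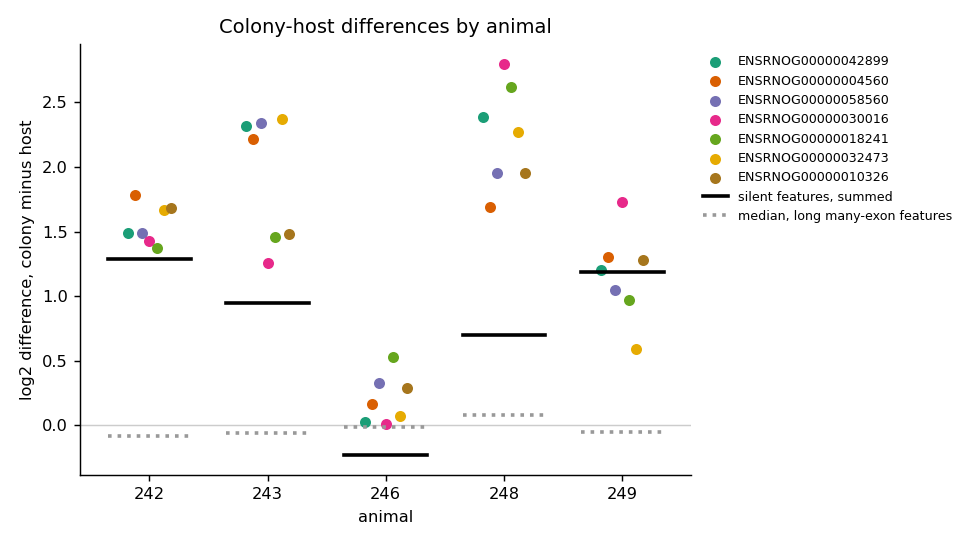
Log2 difference of colony minus host in each animal for the 7 genes (coloured points), the summed silent features (black bars) and the median of tested long many-exon features (dotted grey bars). The genes range from 1.37 to 1.78 in animal 242 and from 0.01 to 0.53 in animal 246, where the silent features stand at -0.23.

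The 7 genes were also ranked among silent features one by one, on values that the choice of genes used. Their colony means lay above 85.9 to 98.4% of the 2065 silent features, and their host means above 71.5 to 93.6%. Of the 1349 silent features that were tested after transplantation, 17.3% rose in every animal, and the quartiles of their fitted log2 difference were 0.50 and 1.30 with a median of 0.88. The rises of the 7 genes exceeded those of 76.1 to 81.8% of them. These 1349 features had passed the low-count filter on the captured libraries, which counts in colonies alone can satisfy. Their share that rose and these ranks thus rest partly on the values compared, and nothing is read from them. Relative to the summed silent level of the same library, the 7 genes stood at a median of 2.96 times in colonies (range 1.74 to 4.66) and 2.03 times in hosts (0.495 to 4.22). In the host of animal 248 the median of the 7 was 1.10 times the silent level, and in the host of animal 249 it was 3.03 times.

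Within the class of long many-exon features, the colony-host difference followed the level before transplantation. Leaving the 7 genes out, the median log2 difference was 0.75 for 192 features under 0.05 RPKM on average before transplantation and 0.43 for 339 features from 0.05 to 0.5 RPKM. It was -0.06 for 870 features from 0.5 to 5 RPKM and -0.18 for 507 features from 5 RPKM up. A rise in every animal was seen in 27.1, 16.5, 4.37 and 1.78% of these ranges. The median level in captured tissue was 1.27 RPKM in colonies and 0.763 RPKM in hosts in the lowest range, and 17.0 RPKM in colonies and 19.7 RPKM in hosts in the highest. These medians describe features, which are not independent replicates.

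Of the 7 genes, 4 fall in the lowest range, 2 in the next (ENSRNOG00000004560 and ENSRNOG00000010326) and ENSRNOG00000018241 in the highest. The fitted log2 difference of ENSRNOG00000018241 was 1.35, a value that its choice fixed to be high and near that of the other 6. Its mean of 2.67 RPKM in colonies and 1.09 RPKM in hosts was set against 13.7 to 29.5 RPKM in the fetal sorts and 0.346 RPKM in adult cells, levels that come from other kits and were not tested against each other.

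**Figure D4:**
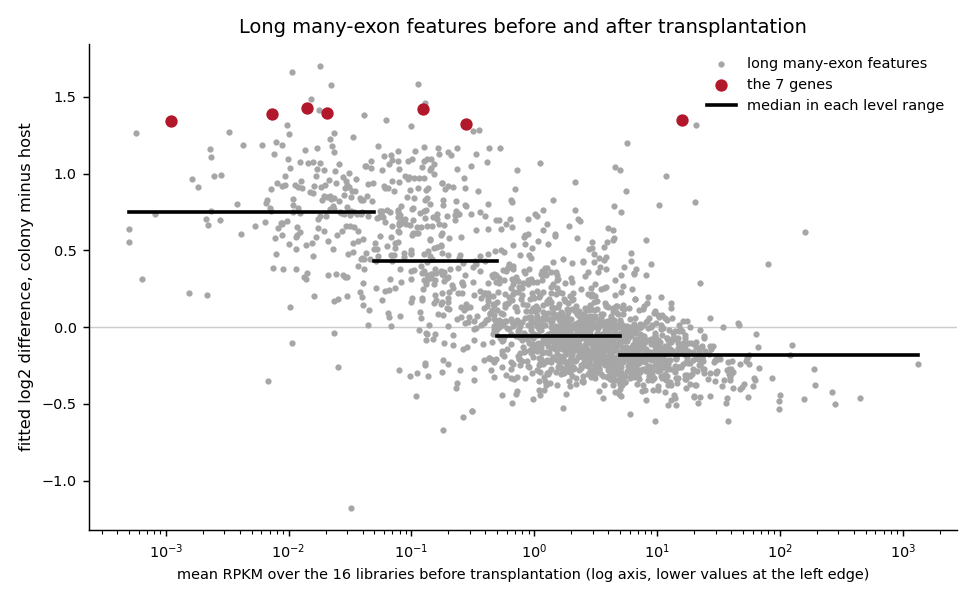
Fitted log2 difference of colony minus host for the 1915 tested features over 4000 nt with 22 or more exon intervals, against their mean RPKM over the 16 libraries before transplantation (log axis); red points are the 7 genes and black bars the medians of 4 level ranges without them. The medians run from 0.75 in the lowest range to -0.18 in the highest, and 1 red point, ENSRNOG00000018241, lies in the highest range.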

How the data were processed

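The authors deposited raw counts per feature, 1 file per library, with exon coordinates and length, per the file headers. The submitters' processing notes list featureCounts, Subread 1.5.2, STAR 2.5.2b, Trimmomatic 0.36 and bcl2fastq 2.17. The sources used here do not give the genome build or the strand setting of the counting, so a gene's reads and reads from its opposite strand cannot be told apart. Groups come from the sample titles, and p-values measure the spread between libraries that the titles call biological replicates.

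The test before transplantation was that of edgeR 4.0.16 in R 4.3.3 (TMM, filterByExpr, robust quasi-likelihood F test, Benjamini-Hochberg adjustment over all genes tested, threshold 0.05). The 16 libraries before transplantation entered 1 fit without a block, and the 10 captured libraries a fit with the animal as a block, since titles give colony and host the same animal. Within an animal, the deviations of colony and host from their group means had r from -0.22 to 0.44. Intervals are 95% and use the t distribution. Silent features and the ranges of level were defined after the data were seen. In simulated data with 200 changed genes, a log2 change of 1 was recovered in 59% of cases and one of 2 in 97% between the OC2 sorts (13583 genes). Changes were placed only on genes averaging at least 2 CPM, in libraries built from 1 mean profile. Simulated LAP+/OC2+ libraries therefore did not carry the mitochondrial share of the real ones, and the rates may not hold for them. ENSRNOG00000004560 and ENSRNOG00000010326 averaged 1.2 and 1.21 CPM before transplantation, so these rates do not cover them. Exact sign-flip tests, intervals and ranks used scipy 1.17.1. Alternatives were DESeq2 1.42.0, RLE size factors, other low-count filters, no mitochondrial features, a replicate block, and leaving out each library. A count of 3 was taken as the limit that a count of 0 allows. The 7 genes, and those named beside them, were chosen with earlier results of these data known.

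Genes named beside the 7 are the 2 nearest to the rule's edge and the 2 with the highest Pearson r to their mean before transplantation.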

Additional observations from a re-analysis of the deposited data

Results flagged for a closer look

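Of 28 combinations of gene and group with more than 3 counts in some library, 2 held a library far from the rest of its group, and chance alone gives about 1 in 20. Both concern ENSRNOG00000058560 before transplantation. LAP+ library 3 stood at 0.0817 RPKM (7 counts), against 0 to 0.00971 RPKM in the other 3 LAP+ libraries. LAP+/OC2- library 4 stood at 0.161 RPKM (13 counts), against 0.0109 to 0.031 RPKM in the other 3. No captured library stood as far from its group for any of the 7 genes.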

How the results depend on the processing

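The median colony-host rise of the 7 genes, 1.39 on the log2 scale, stayed between 1.30 and 1.43 with RLE size factors, with other low-count filters, without mitochondrial features, without 1-exon and short features and with no replicate block (1.30). It ran from 1.16 to 1.68 leaving out 1 animal at a time. Scaled to silent features, the median was 0.65, taken from plain means over animals and not from the fit. Before transplantation, where 3 of the 7 genes were tested and 60.3, 77.5 and 59.3% of all features were called in the comparisons with adult cells, the genes called were 3 for LAP+ against adult (2 to 3 leaving out 1 library), 3 for LAP+/OC2+ against adult (2 to 3, and 4 without a low-count filter) and 2 for LAP+/OC2- against adult (1 to 2). Without adult library 3 or 4 the last count was 1. With the replicate number as a block it was also 1, since ENSRNOG00000010326 lost its call (log2 difference 1.59, edgeR adjusted p = 0.0796). The block changed no other of these counts of genes called, and equal numbers correlated over 0.1 in 3 of 21 pairs of libraries. Between the OC2 sorts 1 gene was called, and 2 without a low-count filter, where ENSRNOG00000042899 entered at 8 LAP+/OC2+ counts in all. LAP+/OC2- against LAP+ called 54 features in all, 208 with DESeq2 and 44 to 98 leaving out 1 library. On nuclear totals the mean of library medians of the 7 genes was 0.018 RPKM in LAP+ and 0.125 RPKM in LAP+/OC2+ cells, against 0.0132 and 0.0654 RPKM on TMM-scaled sizes. On unscaled library totals the LAP+/OC2+ value was 0.042 RPKM. The values of a group differ only in the library size by which the same counts were divided. With at most 13 counts in a library, the levels of 4 of the genes before transplantation rest on few reads.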

Other observations

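Other indices of the captured libraries are given as values, since with 5 animals no p under 0.0625 was possible. Features of 1 exon and at least 200 nt took 1.76 ± 0.17% of colony counts and 1.95 ± 0.664% of host counts (SD over 5 animals; exact sign-flip permutation, 2-sided, p = 0.688), higher in the colony of 2 of 5 animals, with the host of animal 248 at 3.11%. The mean difference of colony minus host was -0.189 percentage points there and 0.0237 with a length of at least 1000 nt, so its direction turned with the length limit. Features lying inside an intron of a longer feature on the same strand took 0.546 ± 0.0954% in colonies and 0.602 ± 0.155% in hosts (exact p = 0.562), higher in the colony of 1 animal. Mitochondrial features took 1.05 ± 0.301% in colonies and 0.723 ± 0.167% in hosts (exact p = 0.25), higher in the colony of 3 animals. After adjustment over 5 indices these p-values were 0.688, 0.688 and 0.625.

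The introns of the 7 genes hold 1 annotated feature, ENSRNOG00000060898, of 927 nt on the opposite strand of ENSRNOG00000018241. It had 0 counts in the 5 colony libraries, the 5 host libraries and the 16 libraries before transplantation.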
